A study of Mus musculus with 24 samples.

Results

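Arc, the activity-regulated cytoskeleton-associated gene, was followed in the dorsal hippocampus of 24 mice. It is the single line of the deposited table that carries this gene name, 1 of 19661 genes. It was chosen by name, with earlier results of these data known. RNA was sequenced from 1 library per animal in 4 groups of 6 animals. Wild-type mice were C57BL/6J, and Baf53b+/- mice were heterozygous for a targeted allele of Actl6b, the gene that encodes the neuronal BAF chromatin remodelling subunit BAF53b, with a strain label that joins B6J to 129S6-Actl6b<tm1Grc>. In each genotype, 6 animals came from the home cage and 6 were killed 30 min after Object Location Memory training, where mice explore an arena with objects at set places. The strain label goes with the genotype, so an effect of the allele and one of the background cannot be told apart. Age and sex are absent from the labels used here. Read from expression of Ddx3y, the share of males was 0.833 in Baf53b+/- home cage mice and 0.5 in each other group. One functional copy of Actl6b remains in the heterozygotes, and the allele is not restricted to a cell type by the labels. Home cage animals had no training, so exposure to the arena and learning cannot be told apart.

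Arc is an immediate early gene: neuronal activity switches on its transcription within minutes without new protein synthesis, and part of the mRNA travels into dendrites. Its protein acts at the postsynapse, where it promotes removal of AMPA-type glutamate receptors from the membrane, and it is needed for lasting memory in rodents. It descends from a retrotransposon Gag gene and can assemble into capsid-like particles. In the hippocampus its mRNA is widely used to mark recently active excitatory neurons. In RNA from whole dorsal hippocampus, more cells that express Arc and more Arc RNA per cell cannot be told apart.

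In the deposited table Arc lies at chromosome 15, from 74499513 to 74503000 (mm9, coordinates as deposited). No other gene of the table overlaps this stretch. Values are RPKM, reads per kilobase of transcript and per M reads. Depth, recovered from the steps between low values, ran from 28.4 to 46.9 M reads per library. With an exonic length of 3055 bases from the GENCODE mouse annotation, Arc had about 2657 to 5624 reads in a home cage library and about 8720 to 15847 in a trained one. Counting error alone would then give a coefficient of variation between 0.794% and 1.94% per library, well under the spread between animals given below. Actl6b, the check of genotype, stood at 46.4 to 54.4 RPKM in the 12 wild-type libraries and at 27.3 to 32.4 RPKM in the 12 heterozygous ones, with no overlap. All 14 dentate gyrus, 10 CA1 and 10 CA3 markers were above 0 in each group. Choroid plexus transcripts were abundant in 6 libraries, 3 from the home cage and 3 after training, and Ttr ran from 7.78 to 4572 RPKM over the 24 libraries.

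Arc was higher after training in both genotypes, and every trained animal exceeded every home cage animal. In wild-type mice from the home cage Arc stood at 26.5, 26.7, 27.8, 31.8, 39.7 and 45.3 RPKM (median 29.8, mean 32.9 ± 7.83, SD, n = 6). In trained wild-type mice it stood at 82.7, 116, 119, 122, 130.4 and 172 RPKM (median 120.3, mean 124 ± 28.9, SD, n = 6). The lowest trained animal lay well above the highest home cage animal, so these groups did not overlap. In Baf53b+/- mice from the home cage Arc stood at 26.9, 28.8, 30.2, 31.3, 32.7 and 39.2 RPKM (median 30.8, mean 31.5 ± 4.28, SD, n = 6). In trained Baf53b+/- mice it stood at 107, 110.4, 130.5, 131, 138 and 139 RPKM (median 131, mean 126 ± 14.0, SD, n = 6). Again no trained animal fell within the home cage range, and the 4 highest trained animals lay close together. In order of their means the groups ran from heterozygous home cage and wild-type home cage to wild-type trained and heterozygous trained. Only the step from home cage to trained exceeded the spread between animals. The plot of Arc by animal shows the same gap in both genotypes.

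**Figure D1:**
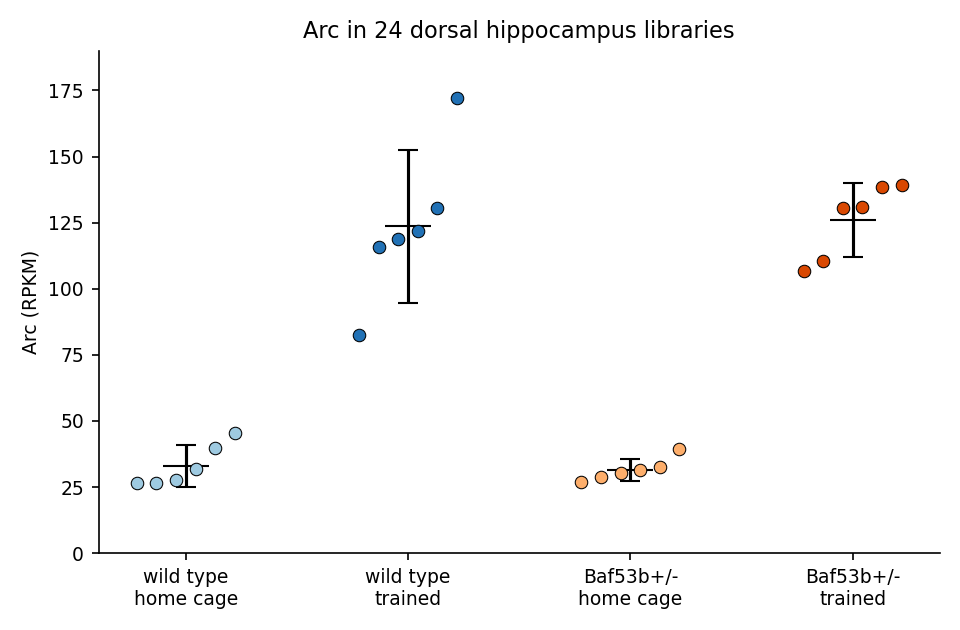
Arc (RPKM) in each of the 24 libraries by group. Each point is an animal, the horizontal bar is the group mean and the whiskers are 1 SD (n = 6). Home cage animals sit between 26.5 and 45.3 RPKM, and trained animals between 82.7 and 172 RPKM.

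The log2 difference between trained and home cage animals was 1.89 ± 0.15 (SE) in wild type, a fold of 3.71 with a 95% interval of 3.01 to 4.57 (limma, adjusted p = 1.53e-08). In Baf53b+/- mice it was 1.98 ± 0.15 (SE), a fold of 3.96 with an interval of 3.21 to 4.88 (limma, adjusted p = 5.84e-09). These folds are on the log2(RPKM + 0.5) scale. A two-sided exact permutation test over the 924 ways to split 12 animals gave p = 0.00216 in each genotype, the smallest p it can give. Across the table, limma called 1.08% of the 12399 genes tested in wild type and 1.03% in Baf53b+/- mice. Every trained animal exceeded every home cage animal for 1.08% of genes tested in wild type and 1.0% in Baf53b+/- mice, Arc among them in both. Set against the home cage mean of its own genotype, Arc was 2.51 to 5.23 times as high in single trained wild-type animals and 3.39 to 4.41 times as high in single trained heterozygotes. The lowest and the highest trained animal of all 12 were thus both wild type. With the 6 choroid-rich libraries left out, the log2 difference was 1.85 in wild type and 1.95 in Baf53b+/- mice.

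In rank, Arc moved from a well expressed gene to the top few percent of the transcriptome. In wild-type home cage libraries it ranked between 1315 and 2483 of 19661 genes, and in trained ones between 198 and 598. In heterozygotes the ranks were 1604 to 2429 at rest and 267 to 393 after training. Among the 12399 genes tested, Arc had the third largest log2 difference in each genotype, behind Fos and Egr2. In RPKM gained it came second in wild type, with 90.7, and at rank 4 in Baf53b+/- mice, with 94.5; by the mean of both genotypes it came second. Mbp, which encodes myelin basic protein, had the larger mean gain (28.3 RPKM in wild type and 169 in Baf53b+/- mice), but its difference did not pass the test averaged over genotypes (limma, adjusted p = 0.538). Next by mean gain were Ptgds (91.0 in wild type and 78.6 in Baf53b+/- mice), Fth1 (48.6 and 118) and Cox6a1 (38.2 and 97.0), and none of these passed either.

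The genotypes did not differ detectably in Arc at rest or after training. Levels overlapped in both conditions, and limma called only 1 gene by genotype, 0.00807% of those tested, in each condition; that gene was Actl6b. For Arc the difference of Baf53b+/- minus wild type was -0.04 in the home cage, with a 95% interval of -0.34 to 0.26 (limma, adjusted p = 0.999). After training it was 0.05, with an interval of -0.25 to 0.35 (limma, adjusted p = 0.998). As folds the intervals ran from 0.787 to 1.20 and from 0.841 to 1.28, so differences inside these bounds remain possible. The intervals are for Arc alone and are not limits of detection after adjustment over all genes. Exact permutation tests on RPKM gave p = 0.725 and p = 0.864. The response to training in Baf53b+/- minus that in wild type was 0.09 ± 0.21 (SE), with an interval of -0.33 to 0.52 (limma, adjusted p = 0.985). Shuffling genotype within each condition gave an exact p of 0.659.

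The spread of Arc was wider among wild-type animals than among heterozygotes in both conditions, but the difference in spread passed the test in neither. The coefficient of variation of Arc was 23.8% in wild-type home cage and 23.4% in wild-type trained animals, against 13.6% and 11.1% in heterozygotes. This was not particular to Arc. Of 11 early genes chosen for comparison, all but Homer1 had a higher coefficient in wild type after training, as Fos (32.0% against 13.2%) and Junb (18.3% against 7.08%). These genes share the same animals, and animal 2436 stood apart as the highest of that group for Fos, Egr1, Egr2, Nr4a1, Junb and Dusp1. The median coefficient of all genes tested was 6.76% in trained wild type and 5.87% in trained heterozygotes, and 6.55% and 7.06% in the home cage. At rest Egr1, Egr2, Npas4 and Bdnf had the higher coefficient in heterozygotes and the others in wild type. On the log2 scale the trained animals lay on average 0.210 from their group median in wild type and 0.118 in Baf53b+/- mice (exact permutation p = 0.416, two-sided). At rest these distances were 0.253 and 0.128 (exact permutation p = 0.227, two-sided). Leaving out the lowest trained wild-type animal (2421) changed the difference after training from -0.0919 to -0.0227, and leaving out the highest (2436) changed it to -0.0272. In every group Arc varied more than most genes: 99.5% of the 3173 genes between 16.5 and 65.9 RPKM varied less in wild-type home cage animals. For genes at a level as near to that of Arc the share was 99.4% in trained wild-type, 94.5% in heterozygous home cage and 96.8% in trained heterozygous animals. Fos, Egr2 and Npas4, at lower levels, had a higher coefficient of variation than Arc in every group.

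Many other activity-induced early genes were also higher after training, and none was called lower. Of 67 other early genes tested, 31 were higher after training in wild type (background 0.96% of all genes) and 33 in Baf53b+/- mice (background 0.887%), and 0 were called lower in either (background 0.121% and 0.145%). Averaged over genotypes, where 4.17% of all genes were called, 45 of the 67 were higher, against 3.26% of all genes, and the other 22 did not pass. The median log2 difference of these 67 was 0.29 in wild type and 0.31 in Baf53b+/- mice, where the median of all genes tested was 0.01 and -0.00. The list was drawn up from genes known to respond to activity, with earlier results of these data in view. By averaged RPKM gain Arc alone held 23.8% of the summed gain of 389 RPKM over the 68 early genes, with negative gains set to 0. At rest it was not a low gene: 10 of the 68 stood above it.

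Egr1, Egr2 and Egr4 are zinc finger transcription factors of the early growth response family. Egr2 ranged from 0.176 to 0.490 RPKM (median 0.311) in wild-type home cage animals and from 2.22 to 4.55 (median 2.57) after training, without overlap. It passed the filter of 1 RPKM only through the trained animals, and its log2 difference averaged 2.11 ± 0.09 (SE). Every home cage value of Egr2 lay below the 0.5 RPKM added before the log, which makes this difference smaller. As a ratio of mean RPKM, Egr2 was 9.13 times as high after training in wild type and 11.8 times in Baf53b+/- mice. For Fos these ratios were 7.56 and 6.78, so Egr2 stood above Fos by ratio and below it on the log2 scale. Egr1 ran from 40.5 to 51.5 RPKM (median 44.7) in wild-type home cage and from 95.1 to 123 (median 103) in trained animals, and its averaged log2 difference was 1.23 ± 0.05 (SE). In heterozygotes Egr1 ran from 36.8 to 49.1 and from 85.7 to 107 RPKM, again with no overlap. Egr1 thus began above Arc and ended below it, as the plot of levels at rest and after training shows.

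**Figure D2:**
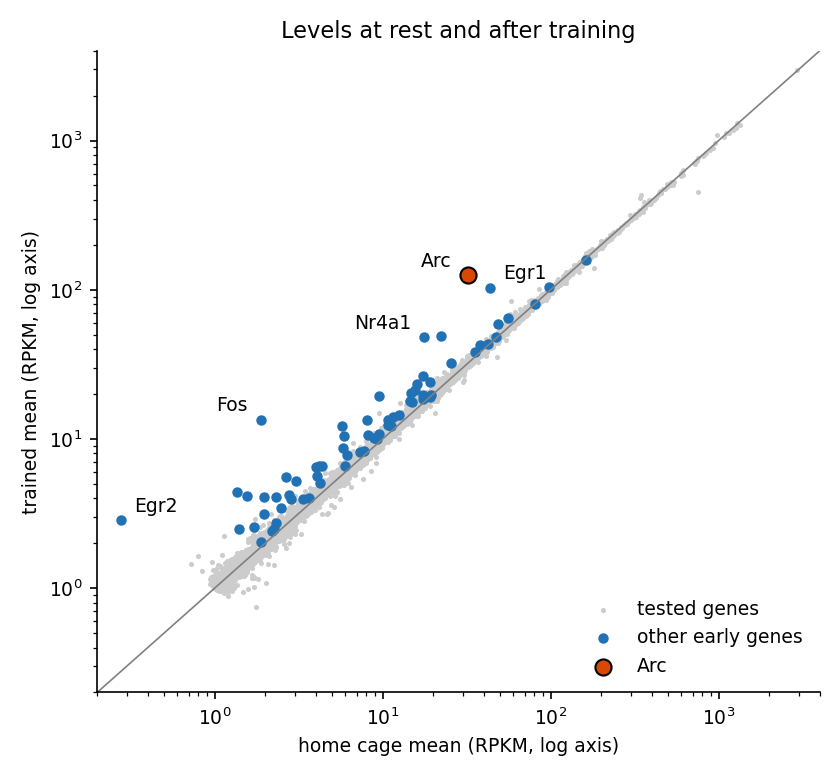
Mean RPKM after training against mean RPKM in the home cage, both averaged over the 2 genotypes (log axes), for the 12399 genes tested. The line marks equal levels; Arc lies furthest above it among genes over 30 RPKM at rest, with Egr1, Nr4a1, Fos and Egr2 labelled.

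Fos, Fosb and Junb encode subunits of the AP-1 transcription factor. Fos rose from 1.19 to 2.74 RPKM (median 1.90) to 11.0 to 23.4 (median 12.8) in wild type and from 1.10 to 2.31 (median 1.94) to 10.8 to 15.5 (median 12.6) in heterozygotes. No trained animal overlapped a home cage animal, and its averaged log2 difference of 2.56 ± 0.13 (SE) exceeded that of Arc. Junb went from 19.1 to 23.96 RPKM (median 22.1) to 42.8 to 66.6 (median 46.7) in wild type, and the averaged log2 difference was 1.12 ± 0.06 (SE). For Fosb the averaged log2 difference was 1.16 ± 0.08 (SE). Nr4a1, an orphan nuclear receptor, ran from 13.9 to 20.9 RPKM (median 17.3) at rest and from 42.1 to 64.5 (median 45.1) after training in wild type, and from 16.3 to 19.4 (median 17.2) and from 43.7 to 53.9 (median 49.3) in heterozygotes. Its groups did not overlap. It rose by 1.43 ± 0.07 (SE) on the log2 scale, Npas4, a neuron-specific activity-dependent transcription factor, by 1.38 ± 0.17 (SE), and Dusp1, a phosphatase of MAP kinases, by 1.002 ± 0.08 (SE). Egr1, Egr2, Egr4, Fos, Fosb, Junb, Nr4a1, Npas4 and Dusp1 all passed the limma test in both genotypes. Bdnf, a neurotrophin, had a log2 difference of 0.18 ± 0.05 (SE), which passed averaged over genotypes (limma, adjusted p = 0.039) but not within wild type (adjusted p = 0.695) or heterozygotes (adjusted p = 0.069). Homer1, a postsynaptic scaffold gene with a short activity-induced form, had 0.07 ± 0.04 (SE, limma, adjusted p = 0.409); a value per gene cannot show the short form alone.

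**Figure D3:**
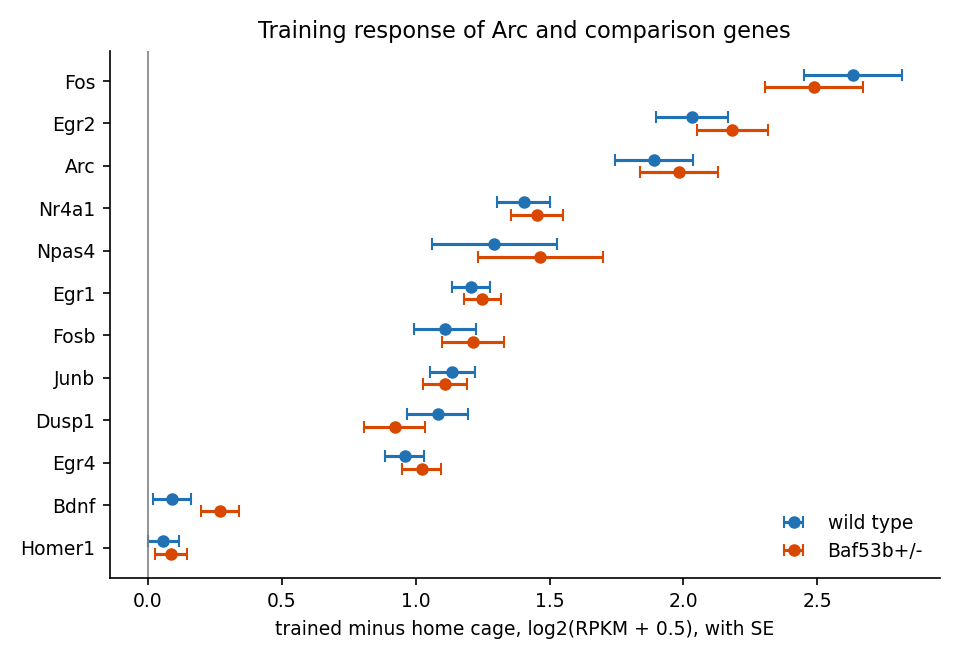
Difference of trained minus home cage on the log2(RPKM + 0.5) scale for Arc and 11 comparison genes in each genotype, with the SE of the limma fit. Arc (1.89 in wild type and 1.98 in Baf53b+/-) lies below Fos and Egr2 and above the other genes in both.

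Most genes that act upstream or downstream of Arc did not pass the test. Of 34 genes known to control Arc transcription or mRNA, 1 (Egr1) was higher after training in wild type (background 0.96% of all genes). In Baf53b+/- mice 3 were higher (Egr1, Egr3 and Srf, background 0.887%). Averaged over genotypes 4 were higher, a larger share than the 3.26% of all genes, and 1 was lower, against 0.911% of all genes. Egr3, a further family member that can bind the Arc promoter region, rose by 0.29 ± 0.06 (SE), and Srf, the serum response factor, rose by 0.16 ± 0.03 (SE). Egr1, Egr3 and Srf are also on the early gene list. Upf1, the helicase of nonsense-mediated decay, a pathway that limits Arc mRNA in rodent neurons, rose by 0.09 ± 0.02 (SE, limma, adjusted p = 0.024); it was named after its values were seen. Hdac3, a histone deacetylase, fell by 0.08 ± 0.02 (SE, limma, adjusted p = 0.018). With the 6 choroid-rich libraries left out, Upf1 (limma, adjusted p = 0.090) and Hdac3 (limma, adjusted p = 0.054) no longer passed. The median log2 difference of the 34 was -0.01.

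Of 32 genes for partners and turnover of the Arc protein, limma called 0 in wild type, in Baf53b+/- mice and averaged over both, where it called 1.08%, 1.03% and 4.17% of all genes, so 0 of a list this short is near the background. At an unadjusted p under 0.05 there were 2, 3 and 2, against 11.1%, 11.0% and 16.8% of all genes. The lowest averaged p belonged to Notch1, a receptor whose activation in neurons involves Arc (log2 difference 0.13 ± 0.04, SE, limma, adjusted p = 0.055), and Pml, a nuclear body protein (0.08 ± 0.03, SE, limma, adjusted p = 0.209). Among 17 tested genes that, like Arc, derive from Gag of retrotransposons, limma also called 0 in each of these comparisons, again near the background, with 1, 1 and 0 at an unadjusted p under 0.05. Examples are Pnmal1, at -0.04 ± 0.03 (SE), and Moap1, at 0.10 ± 0.08 (SE).

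Near Arc on chromosome 15, 14 genes lie within 200 kb and 4 of them were expressed highly enough to test. Bai1, an adhesion receptor of brain, had an averaged log2 difference of 0.00 ± 0.03 (SE), 4930572J05Rik one of -0.05 ± 0.06 (SE) and Lynx1, a membrane-anchored modulator of nicotinic receptors, one of -0.03 ± 0.03 (SE). Jrk, the mouse jerky gene, lies 29.8 kb past the higher coordinate of Arc and moved the other way. It went from 1.86 ± 0.119 to 1.61 ± 0.104 RPKM in wild type and from 1.83 ± 0.0864 to 1.60 ± 0.102 RPKM in heterozygotes (SD, n = 6). Its averaged log2 difference was -0.16 ± 0.03 (SE, limma, adjusted p = 0.005), and it did not pass within wild type (adjusted p = 0.101) or heterozygotes (adjusted p = 0.154). It kept its call when any single library was left out (adjusted p from 0.00486 to 0.0114). Its mean of 1.73 RPKM over all libraries was near the filter of 1 RPKM. Averaged over genotypes, limma called 0.911% of all genes tested lower.

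Trained animals differed in their level of Arc, and the levels of other genes were set against it over these 12 animals. No animal was measured before training, so a level after training is not a rise. No gene passed: 0 of 12398 genes (0.0%) had an adjusted p under 0.05 by permutation of Pearson's r or of Spearman's rho, while 1686 (13.6%) had an unadjusted p under 0.05 for r. Of 67 early genes, 49 had a positive r, against 51.8% of all genes. An unadjusted p under 0.05 with a positive r was found for 12 of them (17.9%), against 7.06% of all genes. With a negative r it was found for 0, so in either direction 17.9% stand against 13.6% of all genes. The median r of the early genes was 0.367, and 0.0207 for all genes tested. Each pair of values comes from the same library and shares its depth and composition. Within wild type the median was 0.473 and within Baf53b+/- mice 0.152, and this difference was not tested. Without the lowest (2421) and highest (2436) animals the median was 0.0963, with 42 of 67 positive.

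Egr2, Nr4a1 and Junb followed Arc most closely among early genes. For Egr2, r was 0.847 (permutation p = 0.00057, adjusted p = 0.173) and rho 0.895 (permutation p = 0.00029, adjusted p = 0.406). For Nr4a1, r was 0.840 (permutation p = 0.00078, adjusted p = 0.173) and rho 0.874 (permutation p = 0.00047, adjusted p = 0.406). For Junb, r was 0.808 (permutation p = 0.00349, adjusted p = 0.234) and rho 0.839 (permutation p = 0.00112, adjusted p = 0.406). Within wild type r was 0.842 for Egr2, 0.817 for Nr4a1 and 0.820 for Junb (exact permutation p = 0.0569, 0.0972 and 0.103, unadjusted). Within Baf53b+/- mice it was 0.878, 0.922 and 0.750 (exact permutation p = 0.0319, 0.0111 and 0.05, unadjusted). These genes were picked for their high r over the same animals, so positive values in each genotype are no independent support. Over both genotypes without the 2 extreme animals r was 0.743 for Egr2, 0.787 for Nr4a1 and 0.633 for Junb. In the home cage r was 0.594, 0.581 and 0.285, none past the adjusted test. Animal 2436 was the highest trained animal for Arc (172 RPKM), Egr2 (4.55), Nr4a1 (64.5) and Junb (66.6), and animal 2421 was the lowest for Arc (82.7 RPKM) and Egr2 (2.22).

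Other early genes had lower values of r. Dusp6, a phosphatase of ERK kinases, had r = 0.630 (adjusted p = 0.305) and 0.634 without the 2 extreme animals; it was named after its values were seen. For Egr4 r was 0.755 (permutation p = 0.00952, adjusted p = 0.263; rho 0.643), but 0.362 without the 2 extreme animals. For Dusp5, another MAP kinase phosphatase, r was 0.642 (adjusted p = 0.325, rho 0.301) and became -0.0818 without them, so it rests on those animals. Fos, whose training response was larger than that of Arc, had r = 0.593 (permutation p = 0.0738, adjusted p = 0.405; rho 0.497), 0.417 without the extremes and 0.184 without animal 2436 alone. Values of r were 0.633 for Npas4, 0.617 for Egr1, 0.474 for Dusp1, 0.300 for Bdnf, 0.154 for Fosb and -0.212 for Homer1. Values of rho were 0.538 for Npas4, 0.769 for Egr1, 0.371 for Dusp1, 0.399 for Bdnf, 0.161 for Fosb and 0.0559 for Homer1. Without the 2 extreme animals r was 0.109 for Npas4, 0.556 for Egr1, 0.307 for Dusp1 and 0.127 for Bdnf. Leaving out animal 2436 alone gave an r of 0.406 for Npas4, 0.360 for Egr1, 0.0990 for Dusp1 and 0.1001 for Bdnf. These values of Pearson's r thus depend on that animal. The lowest belonged to Pcsk1, a prohormone convertase (-0.627), Fosl2, a further AP-1 subunit (-0.562), and Ctgf, a matricellular growth factor (-0.496), and all 3 lay between -0.133 and 0.0635 without the 2 extreme animals.

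**Figure D4:**
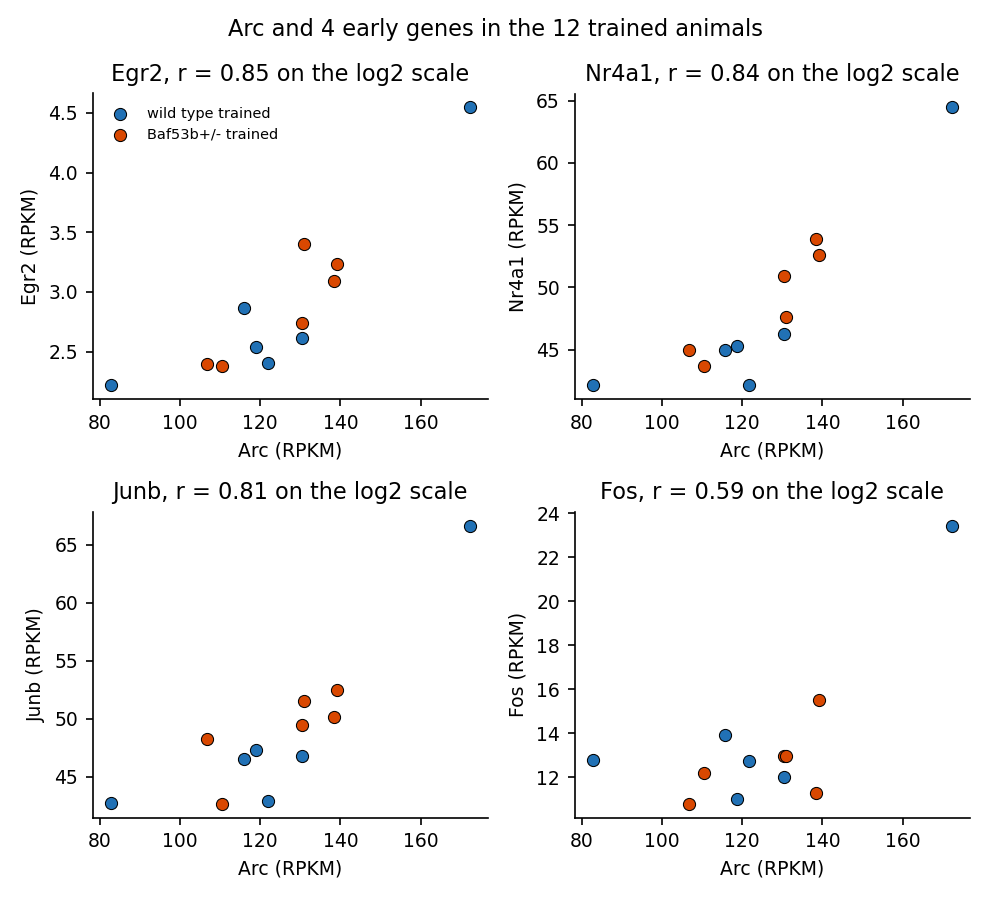
RPKM of Egr2, Nr4a1, Junb and Fos against RPKM of Arc in the 12 trained animals, each point an animal coloured by genotype, with Pearson's r of the log2 values above each panel. The rightmost animal (172 RPKM of Arc) is also the highest in all 4 panels.

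The promoters of Nr4a1 and Junb are shown because, of the 5 early genes with the highest r, they are those with an r of at least 0.6 without the extreme animals and a single window in RefSeq (GRCm38.p6, 250 bases before to 50 after the start, read 5′ to 3′ on the gene's strand). The Nr4a1 window is chr15:101266596-101266895 on the plus strand and the Junb window chr8:84978699-84978998 on the minus strand. Capitals mark matches, on either strand, to motifs of factors that respond to activity or to the TATA box: TGACG (the core of CREB sites, which reads CGTCA on the other strand), the full CREB site TGACGTCA, the AP-1 site TGANTCA, the Egr site GCGNGGGCG, the E-box CACGTG, the TATA box TATAAA and the CArG box of Srf.
Nr4a1: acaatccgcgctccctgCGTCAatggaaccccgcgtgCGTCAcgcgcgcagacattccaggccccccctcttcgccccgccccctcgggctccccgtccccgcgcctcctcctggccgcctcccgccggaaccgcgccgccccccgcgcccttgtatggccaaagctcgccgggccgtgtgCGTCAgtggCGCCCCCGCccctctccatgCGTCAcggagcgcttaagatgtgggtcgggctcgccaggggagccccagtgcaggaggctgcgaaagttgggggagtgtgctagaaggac
Junb: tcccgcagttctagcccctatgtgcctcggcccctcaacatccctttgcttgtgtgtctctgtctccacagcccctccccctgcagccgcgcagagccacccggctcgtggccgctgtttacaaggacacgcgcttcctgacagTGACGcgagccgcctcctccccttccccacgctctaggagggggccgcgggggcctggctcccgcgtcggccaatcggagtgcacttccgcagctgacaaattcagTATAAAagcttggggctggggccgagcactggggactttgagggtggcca
The Nr4a1 window holds 4 matches to TGACG and 1 to GCGNGGGCG, and the Junb window holds 1 match to TGACG and 1 to TATAAA. In Junb, TATAAA covers bases 251 to 256 of the window, so it begins at the annotated start and not upstream of it. Of the 32851 mouse windows of this length, 20.8% hold TGACG, 5.55% GCGNGGGCG and 13.6% TATAAA. The letters TGACG are also contained in TGACGTCA, which 1.79% of windows hold. CACGTG is found in 7.15%, TGANTCA in 7.81% and the CArG box in 1.63%. A match describes these letters and is not a measured site.

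Over all genes the highest r with Arc after training belonged to Med10, a Mediator subunit (0.920), 6330406I15Rik (0.915), Nip7, a ribosome assembly factor (0.890), Rab1b, a GTPase of early secretion (0.888), Selplg, a selectin ligand (0.883), and C87436 (0.875). The lowest belonged to Ubn2, a ubinuclein (-0.905), Fam115a (-0.904) and Kcnma1, the BK potassium channel (-0.899). Each of these 9 had a permutation adjusted p of 0.173. Genes with a positive r (unadjusted p under 0.05) had a median transcript length of 2687 bases and those with a negative r of 5753, where all genes tested had 3257. A transcript length score, the median deviation in a library of genes of at least 5282 bases minus that of genes of at most 1833 bases, moved with Arc over trained animals at r = -0.758 (permutation p = 0.00439, adjusted p = 0.123 over 28 library measures; rho -0.671) and at -0.392 without the 2 extreme animals. In home cage animals that r was 0.123. The mean log2 level of 8 microglia markers had r = 0.665 with Arc (permutation p = 0.018, adjusted p = 0.251; rho 0.601) and 0.340 without the 2 extreme animals. All 8 were detected, and their summed level ran from 168 to 199 RPKM in trained wild type and from 177 to 191 in trained heterozygotes. For CA1 markers r was -0.551 (adjusted p = 0.446), and 0.260 without the 2 extreme animals, and for dentate gyrus markers 0.50 (adjusted p = 0.585) and 0.0489. Summed CA1 markers ran from 248 to 336 RPKM in trained wild type and from 233 to 296 in trained heterozygotes, and summed dentate gyrus markers from 201 to 310.2 and from 233 to 323. On residuals from the transcript length score, r with Arc was 0.601 for Egr2, 0.733 for Nr4a1, 0.554 for Junb and 0.0883 for Fos. On residuals from the dentate gyrus marker level these values were 0.850, 0.839, 0.788 and 0.737. The part of microglia and CA1 in the correlations was not tested.

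**Figure D5:**
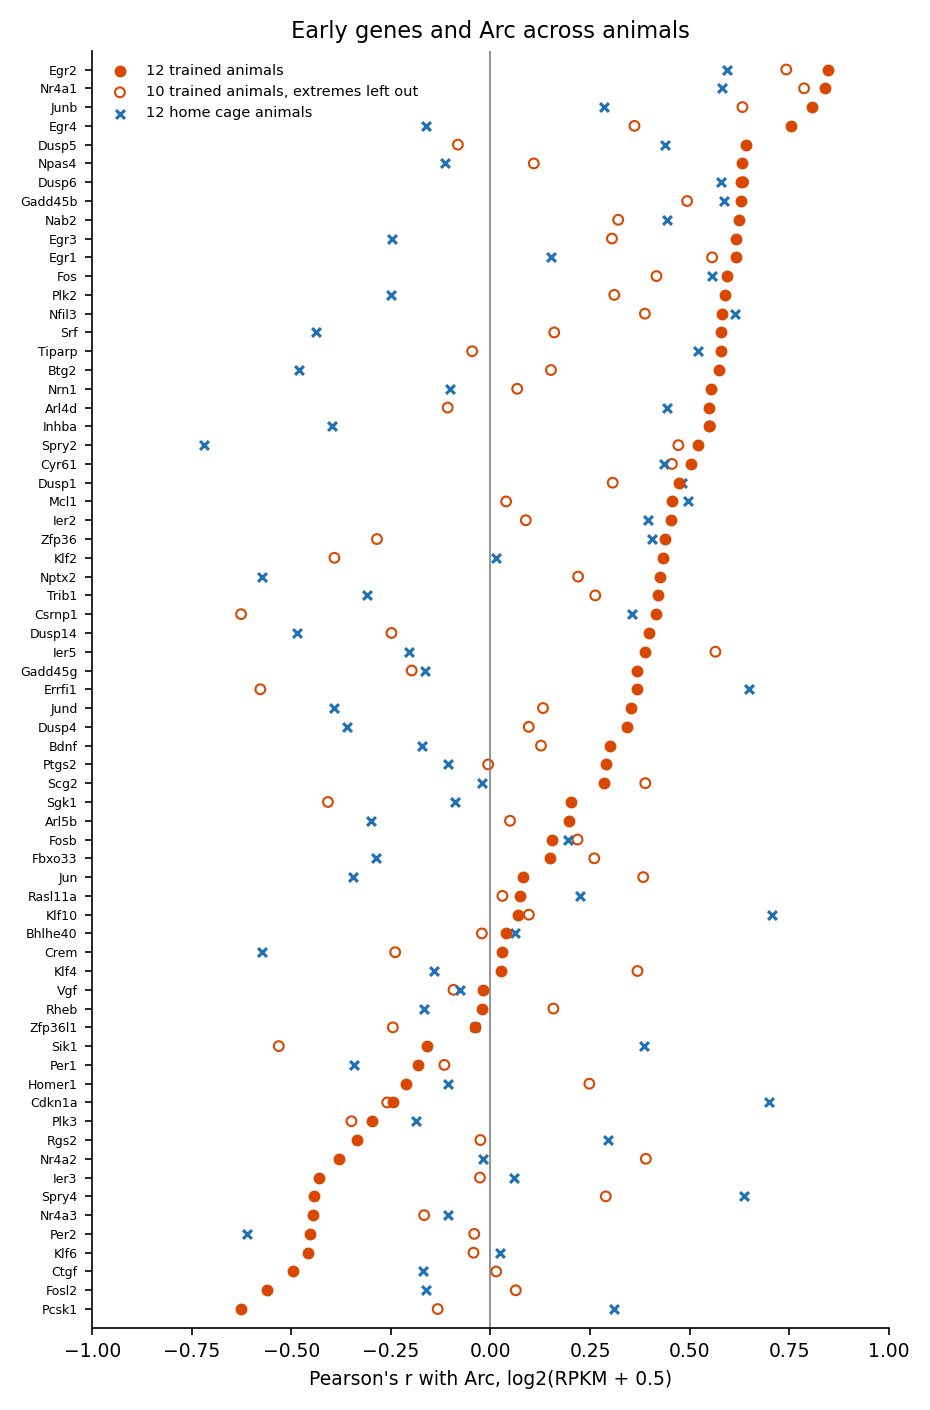
Pearson's r with Arc of the 67 other early genes, in the 12 trained animals (filled), in the 10 left without the lowest and highest for Arc (open) and in the 12 home cage animals (crosses), ordered by the first. Filled points run from -0.627 to 0.847, and the open points of Egr2, Nr4a1 and Junb are at 0.743, 0.787 and 0.633.

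At rest the early genes were divided between negative and positive values of r. Over the 12 home cage animals 0 of 12398 genes passed the adjusted permutation test (0.0%), and 499 (4.02%) had an unadjusted p under 0.05. Of the 67 early genes 31 had a positive r, with a median of -0.0379, and 12 had an unadjusted p under 0.05. For 9 of the 67 (13.4%) it came with a positive r, against 2.79% of all genes. The 2 highest home cage animals for Arc (2418 and 2405) were both wild type, at 45.3 and 39.7 RPKM, and the highest heterozygote stood at 39.2 RPKM.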

How the data were processed

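RNA came from both dorsal hippocampi of each mouse, with TruSeq v2 libraries and single-end reads of 50 cycles, per the labels' protocols. All behavioural groups were on every flow cell, but the labels do not say which pool held which animal, and the fits have no batch term. The authors deposited RPKM values per gene and animal; per the submitters' processing notes, CASAVA 1.8.2, Bowtie 0.12.8 and mm9 were used. The sources used here give no rule for reads that match several genes.

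Depth was recovered from single-exon genes with up to 30 reads, where 71.8% to 78.7% of values came out whole (tolerance 0.05 reads), against at most 6.90% at the median total tried. No 2 libraries were identical, and labels give each animal its own number.

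The log2 of RPKM plus 0.5 was fitted for the 12399 genes averaging 1 RPKM or more over all libraries, with limma 3.58.1 in R 4.3.3 (4 groups, trend, robust) and Benjamini-Hochberg adjustment over all of them; an adjusted p under 0.05 was called. The fit and the correlations were checked on simulated data. Correlations used 100000 permutations of animals, and 720 exact ones within a genotype. Arc levels at rest and after training did not overlap, so these animals were not pooled for the correlations. Alternatives were other pseudocounts and filters, upper quartile scaling, limma without trend, sex (read from Ddx3y) or library scores as terms, ranks, residuals, and fewer libraries or single animals left out.

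Named genes were Arc, 11 comparators, the extremes of r (6 highest, 3 lowest; 5 and 3 among early genes), neighbours by rank and by position within 200 kb, and up to 4 passing or 2 other members of each list. Arc and all lists were chosen with earlier results of these data known. The 17 repeated gene names were kept as separate lines.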

Additional observations from a re-analysis of the deposited data

Results flagged for a closer look

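Of 52 checks (13 genes in 4 groups of 6 animals), 8 found an animal set apart by a gap that takes up most of its group's range; chance gives about 1 in 20. Arc itself was not among them in any group. In trained wild-type mice, animal 2436 stood apart as the highest for Fos (23.4 RPKM, next 13.9), Egr1 (123, next 105), Egr2 (4.55, next 2.86), Nr4a1 (64.5, next 46.2), Junb (66.6, next 47.4) and Dusp1 (17.6, next 12.5). The same animal was the highest for Arc, at 172 RPKM. Over the 12 trained animals it was the highest for 27 of the 68 early genes (39.7%) and for 10.7% of all genes tested, a count made after its values were seen. Its library was also the shallowest, at 28.4 M reads, and had the lowest transcript length score of the trained animals (-0.0771). Animal 2421, the lowest trained animal for Arc, was the highest for 19.5% of all genes tested and the lowest for 15.9%. Each share was the largest of any trained animal. Among trained animals, 2421 had the highest transcript length score (0.0654) and CA1 marker level (4.45) and the lowest dentate gyrus marker level (3.34). The part of these library traits in the values was not tested. In trained Baf53b+/- mice, animal 2409 was the lowest for Egr1 (85.7 RPKM, next 102). In wild-type home cage mice, animal 2404 was the highest for Bdnf (11.0 RPKM, next 10.1).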

How the results depend on the processing

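The rise of Arc with training kept its direction and its call under every alternative run: 1.85 to 1.90 in wild type and 1.95 to 2.05 in Baf53b+/- mice on the log2 scale, and 1.79 to 1.999 and 1.94 to 2.05 with single animals left out. The differences close to 0 changed sign without passing any test. With single animals left out, genotype ran from -0.107 to 0.0541 in the home cage and from -0.0568 to 0.154 after training, the interaction from -0.0143 to 0.197, and r with Arc from -0.383 to 0.659 for Fosb and from -0.373 to 0.340 for Homer1. For Homer1, Spearman's rho gave 0.0559, residuals on dentate gyrus markers 0.0554 and leaving out the 2 extreme animals 0.248. For Fosb, residuals on the transcript length score gave -0.247. The causes were not tested. Over the alternatives r ran from 0.601 to 0.895 for Egr2, 0.733 to 0.874 for Nr4a1 and 0.554 to 0.839 for Junb. Counts of genes correlated with Arc were 0 under every alternative. With Arc counted, 46 early genes rose averaged over genotypes, and 41 to 51 over the alternatives. The transcript length score, the omission of the 2 extreme animals and the alternatives for Jrk and the control genes were chosen after seeing the data. No paired analysis was possible because the replicate numbers name single animals and none is shared between groups. With 6 animals a group, genotype differences inside the intervals given remain possible, and depth was not the limit for Arc.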
